A study of Mus musculus with 9 samples.

Results

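The cone phototransduction genes described here are the 10 genes that encode the light-detection cascade of cone photoreceptors: the opsins Opn1sw and Opn1mw, the transducin subunits Gnat2, Gnb3 and Gngt2, the phosphodiesterase subunits Pde6c and Pde6h, the channel subunits Cnga3 and Cngb3, and the arrestin Arr3. They were chosen by name, as the cone opsins and the cone members of the cascade, and their Ensembl identifiers were looked up among the 47729 genes of the deposited count table. All 10 were found, and all 10 had enough counts to be tested in each comparison.

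The study profiled whole mouse retinas by bulk RNA sequencing in 9 libraries, with 3 libraries in each of 3 groups, all on the C57Bl6/J background. The Yap CKO group carried Yap flox/flox and Rax-CreERT2, a Cre that 4-hydroxytamoxifen (4-OHT) activates. Its Rax promoter limits deletion of the transcription coactivator gene Yap to Müller cells, the radial glia of the retina, so the cones themselves are not the cells in which Cre is driven. The control group carried Yap flox/flox without the Cre. Both groups received 4-OHT at P10 and were taken at P60, and each library came from 1 retina. The C57 group was wild type and P30. Its samples are records of an older series that the submitters analysed again, and the labels describe no 4-OHT for it. The descriptions of the Yap CKO and control samples hold the letters MNU, which the labels do not explain, and the control samples are labelled Yap CKO, with no Cre, in their genotype field. Yap CKO against control asks about the loss of Yap in Müller cells, but sex-linked RNAs, given below, were also unequal between these groups. Each P60 group against C57 also differs in age, alleles, 4-OHT, whatever the letters MNU stand for, sequencing depth and the series of origin, and these cannot be told apart. The labels do not say which retinas came from separate animals, so p-values measure the spread between these retinas.

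In a cone, light changes the shape of an opsin, which activates transducin. Transducin releases the inhibitory subunit from a phosphodiesterase, the enzyme lowers cyclic GMP, and the channel formed by the cyclic-nucleotide-gated subunits closes. Arrestin then binds the phosphorylated opsin and ends its signal. Cones use their own copy of most of these proteins, and rods use a parallel set. Mouse cones often hold the short-wavelength opsin (Opn1sw) and the middle-wavelength opsin (Opn1mw) in the same cell, with Opn1sw dominant in the ventral retina.

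The promoters of the opsins and of Arr3 are shown. They were picked as free of annotated exons except in their last bases, but their overlap with exons was not tabulated. Each run gives the 250 bases before the RefSeq start on GRCm38.p6, 5′ to 3′ on the strand of the gene. The windows are chr6:29380514-29380763 on the minus strand for Opn1sw, chrX:74127216-74127465 on the plus strand for Opn1mw and chrX:100605247-100605496 on the plus strand for Arr3. The Opn1sw window lies inside the annotated span of the gene, which is given below. Capitals mark TAATC, the core of the motif TAATCC bound by the photoreceptor homeobox factor Crx, and AGGTCA, a motif of nuclear receptors, or the reverse complement of either.
Opn1sw: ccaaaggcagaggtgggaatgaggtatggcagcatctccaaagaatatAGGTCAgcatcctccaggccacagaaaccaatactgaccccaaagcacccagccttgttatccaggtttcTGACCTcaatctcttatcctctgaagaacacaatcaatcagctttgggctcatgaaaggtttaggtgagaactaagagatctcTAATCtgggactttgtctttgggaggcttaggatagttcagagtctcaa
Opn1mw: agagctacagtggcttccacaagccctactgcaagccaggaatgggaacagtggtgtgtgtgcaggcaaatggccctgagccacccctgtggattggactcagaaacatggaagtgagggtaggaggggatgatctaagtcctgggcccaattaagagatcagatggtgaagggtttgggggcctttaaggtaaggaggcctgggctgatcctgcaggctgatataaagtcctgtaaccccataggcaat
Arr3: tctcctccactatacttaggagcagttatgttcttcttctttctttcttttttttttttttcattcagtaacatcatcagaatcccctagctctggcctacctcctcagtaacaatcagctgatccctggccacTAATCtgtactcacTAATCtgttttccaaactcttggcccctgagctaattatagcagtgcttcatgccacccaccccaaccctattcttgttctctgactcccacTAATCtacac
The Opn1sw window held AGGTCA at bases -202 to -197 and, on the other strand, at -132 to -127, and TAATC at -49 to -45, counted back from the start. The Arr3 window held TAATC at -116 to -112, -102 to -98 and -10 to -6. The Opn1mw window held neither motif. The RefSeq table held windows for 6 of the 10 genes (also Gnat2, Pde6h and Cnga3). Of these 6 genes, 1 held TAATCC, 1 held AGGTCA and 3 held TAATC on either strand. Among all 32851 windows of this length, 6.25% held TAATCC, 14.0% held AGGTCA and 19.8% held TAATC, a motif that was added after the windows had been read. A match describes letters and no binding was measured.

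Depth was 34739679 to 37629264 counts in the P60 libraries and 13760765 to 16808499 in the C57 libraries. Levels are given as CPM, counts scaled to a common library size, after TMM scaling over the 9 libraries, in the order of the replicate numbers, with the C57 library whose column number no sample description shares last. Yap1 stood at 15.2, 21.4 and 24.02 CPM in Yap CKO retinas and 66.3, 60.4 and 56.9 CPM in control retinas, so the labels of these groups match the deleted gene. It stood at 23.9, 25.8 and 31.1 CPM in C57 retinas. The 13 rod markers reported here summed to 738 to 12950 CPM in Yap CKO, 2381 to 12100 CPM in control and 62250 to 71540 CPM in C57 retinas, so a rod signal was present in each library but very uneven at P60. The library Yap CKO 3 stood apart: its 7 lens markers summed to 888 CPM, against 0.686 to 18.8 CPM in the other 8 libraries, and its rod markers were the lowest. Of those lens markers, Lim2 was at 0 in every library but Yap CKO 3, where it had 1 count.

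Yap CKO and control retinas did not differ detectably in any of the 10 genes, while 9 of them stood lower at P60 than in C57 in every library of both P60 groups. With edgeR's quasi-likelihood test and Benjamini-Hochberg adjustment over all genes tested at a threshold of 0.05, 0 of 10 passed in Yap CKO against control, where 0.2% of all 16539 genes passed. The count was also 0 at an unadjusted p under 0.05, which 17.8% of all genes reached, and 0 by DESeq2 and by limma-voom. Without Yap CKO 3 the test called 1473 genes in place of 33, and still 0 of these 10. The values of the Yap CKO and control groups overlapped for all 10, whereas 25% of all genes had no overlap. In control against C57, 9 of 10 fell, and in Yap CKO against C57, 6 of 10 fell, where 22.4% and 20.2% of all genes tested did. The groups did not overlap for 9 of 10 genes in each of these comparisons, all lower at P60, where 28.2% of all genes in control against C57 and 26.8% in Yap CKO against C57 did so. The median log2 fold change of the 10 genes was 0.09 in Yap CKO against control, -2.29 in control against C57 and -2.36 in Yap CKO against C57, with medians over all genes of 0.01, 0.03 and 0.02. The comparisons share libraries (each group enters a pair of them), so their values stand side by side and are not independent. In whole retinas, fewer cones and less RNA per cone cannot be told apart.

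**Figure D1:**
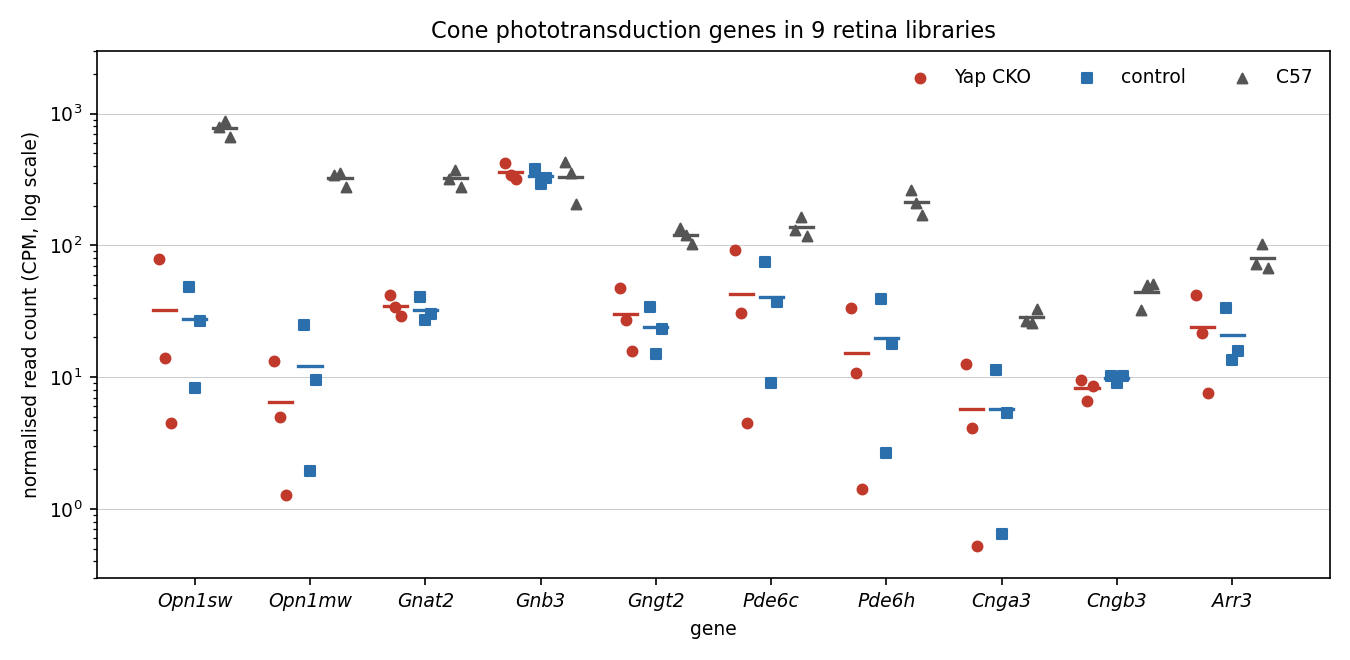
Normalised read counts (CPM, log scale) of the 10 cone phototransduction genes in each of the 9 libraries, with Yap CKO as circles, control as squares and C57 as triangles, and a bar at each group's mean (n = 3). All C57 values lie above all P60 values except for Gnb3, and the P60 points of Opn1sw, Opn1mw, Pde6c, Pde6h and Cnga3 spread by 17.6-fold or more while those of Gnat2, Gnb3 and Cngb3 lie close together.

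The opsins, the light-catching receptors of the cone, showed the lowest levels at P60 relative to C57. Opn1sw (ENSMUSG00000058831, chr6:29376671-29388468, minus strand) had 79.2, 14.0 and 4.50 CPM in Yap CKO retinas, 48.0, 8.28 and 26.6 CPM in control retinas and 788, 877 and 666 CPM in C57 retinas. Opn1mw (ENSMUSG00000031394, chrX:74127464-74150760, plus strand) had 13.2, 4.99 and 1.27 CPM in Yap CKO retinas, 25.0, 1.94 and 9.52 CPM in control retinas and 341, 354 and 279.6 CPM in C57 retinas. Every C57 library lay far above every P60 library for both opsins, and within each P60 group the highest retina exceeded the lowest by 5.79-fold or more. The mean of Yap CKO retinas was 4.19% of the C57 mean for Opn1sw and 2.001% for Opn1mw, and that of control retinas was 3.56% and 3.74%. Opn1sw fell in control against C57 (log2 fold change -4.80 ± 0.59 SE, edgeR adjusted p = 0.000526) and in Yap CKO against C57 (-4.57 ± 1.12, adjusted p = 0.0229). Opn1mw fell in control against C57 (-4.73 ± 0.77, edgeR adjusted p = 0.00201) and in Yap CKO against C57 (-5.64 ± 0.88, adjusted p = 0.00483).

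Between Yap CKO and control the opsins had log2 fold changes of 0.23 ± 1.27 for Opn1sw and -0.90 ± 1.23 for Opn1mw (edgeR adjusted p = 0.956 and 0.773), and the sign of either turned with the library left out. Leaving out control 1 moved Opn1sw to -5.45 and Opn1mw to -5.80 in control against C57, and leaving out Yap CKO 1 moved them to -6.38 and -6.68 in Yap CKO against C57. The Opn1sw call in Yap CKO against C57 was lost without Yap CKO 2 (edgeR adjusted p = 0.0895), without C57 1 (0.0930), without the unnumbered C57 library (0.107), and also without a filter (0.0835). Opn1sw shares 397 exonic bases with Calu on the opposite strand, a gene with 57686 counts over the 9 libraries. Opn1sw itself was down to 181 counts in Yap CKO 3 and 333 in control 2. The library preparation kept strand, but whether counting used it is not given in the sources used here. Reads of the shared bases therefore cannot be assigned with certainty. Opn1mw and Arr3 lie on the X chromosome, and Xist, an X-linked RNA of female cells, stood at 172, 207 and 0 CPM in Yap CKO, 0, 0.0746 and 0 CPM in control and 138, 0.296 and 185 CPM in C57 retinas. Ddx3y, a Y-linked gene, stood at 0, 0 and 71.0 CPM in Yap CKO and 77.2, 77.7 and 77.8 CPM in control retinas. Its values in C57 retinas were 0, 88.2 and 0 CPM. The part of this imbalance in the values of the cone genes, X-linked or not, was not tested.

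The balance between the opsins varied more at P60 than in C57. The count ratio of Opn1sw to Opn1mw was 5.97, 2.79 and 3.52 in Yap CKO retinas, 1.92, 4.25 and 2.79 in control retinas and 2.31, 2.48 and 2.38 in C57 retinas. The C57 ratios lay within a narrow band, the Yap CKO ratios all lay above it, and the control ratios lay on both sides of it. The mean log2 ratio differed by 0.70 between Yap CKO (1.96 ± 0.56, SD, n = 3) and C57 (1.26 ± 0.05), with a two-sided exact permutation p of 0.1, the smallest that 3 against 3 retinas can give. It differed by 0.46 between Yap CKO and control (1.503 ± 0.57; exact permutation p = 0.5) and by 0.25 between control and C57 (exact permutation p = 0.7). Over the 27 ratio tests of this kind described here, the adjusted p was 0.3 for Yap CKO against C57, 0.75 for Yap CKO against control and 0.822 for control against C57.

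The transducin subunits, which carry the signal from opsin to the phosphodiesterase, split into 3 patterns. Gnat2 (ENSMUSG00000009108, chr3:108092789-108101432, plus strand), the alpha subunit that binds GTP, had 41.7, 34.2 and 29.0 CPM in Yap CKO retinas, 40.4, 27.2 and 30.2 CPM in control retinas and 319, 372 and 275 CPM in C57 retinas. Its P60 values lay within 1.54-fold of each other and well under C57. It fell in Yap CKO against C57 (log2 fold change -3.20 ± 0.19, edgeR adjusted p = 2.66e-05) and in control against C57 (-3.29 ± 0.19, adjusted p = 2.38e-05), with both values among the most precise of the 10 genes. Between Yap CKO and control its log2 fold change was 0.10 ± 0.18 (edgeR adjusted p = 0.833).

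Gnb3 (ENSMUSG00000023439, chr6:124834240-124840275, minus strand), the beta subunit, was the exception. It had 419, 339 and 318 CPM in Yap CKO retinas, 378, 295 and 327 CPM in control retinas and 433, 357 and 207 CPM in C57 retinas, and the groups overlapped in each comparison. The widest spread was among the C57 libraries, where the highest exceeded the lowest by 2.09-fold. The log2 fold change was 0.10 ± 0.12 in Yap CKO against control, 0.12 ± 0.25 in Yap CKO against C57 and 0.03 ± 0.25 in control against C57 (edgeR adjusted p = 0.731, 0.741 and 0.939). Both values against C57 turned negative without the unnumbered C57 library (-0.14 for Yap CKO and -0.22 for control). Gnb3 is also known from ON bipolar cells, whose 10 markers were all detected and summed to 1571 to 1955 CPM in Yap CKO, 1772 to 1885 CPM in control and 1769 to 2125 CPM in C57 retinas. This sum joins markers that differed from C57 in opposite directions. Prkca had 224.0 to 289.8 CPM in Yap CKO, 266.6 to 299.0 CPM in control and 549.0 to 660.1 CPM in C57 retinas. Trpm1 had 322.8 to 404.4 CPM in Yap CKO, 427.9 to 519.0 CPM in control and 296.6 to 341.0 CPM in C57 retinas. Both were named after their values were seen, and the part of bipolar cells in the Gnb3 level was not tested.

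Gngt2 (ENSMUSG00000038811, chr11:95837216-95845734, plus strand), the gamma subunit, lay between these patterns, with 47.5, 27.2 and 15.9 CPM in Yap CKO retinas, 34.0, 14.9 and 23.3 CPM in control retinas and 136, 121 and 102 CPM in C57 retinas. The P60 values spread by 3.19-fold and stayed under every C57 value. Gngt2 fell in Yap CKO against C57 (log2 fold change -1.98 ± 0.36, edgeR adjusted p = 0.00400) and in control against C57 (-2.29 ± 0.28, adjusted p = 0.000555), and it had 0.32 ± 0.51 in Yap CKO against control (adjusted p = 0.807). Gngt2 is also known from myeloid cells. The 14 microglia and macrophage markers summed to 151.6 to 204 CPM in Yap CKO, 150.1 to 171 CPM in control and 151.7 to 161 CPM in C57 retinas. This sum joins markers that lay on opposite sides of C57. Cd68, a lysosomal protein gene of macrophages, had 16.8 to 24.9 CPM in Yap CKO, 15.2 to 20.2 CPM in control and 1.42 to 1.93 CPM in C57 retinas. P2ry12, a purine receptor gene of microglia, had 0.354 to 0.373 CPM in Yap CKO, 0.158 to 0.412 CPM in control and 5.06 to 7.03 CPM in C57 retinas. Both were named after their values were seen, and the part of these cells in the Gngt2 level was not tested. Gngt2 shares 234 exonic bases with Abi3 on the opposite strand, a gene with 521 counts over the 9 libraries.

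The phosphodiesterase subunits varied widely among the P60 retinas. Pde6c (ENSMUSG00000024992, chr19:38132781-38183958, plus strand), the catalytic subunit, had 92.5, 30.8 and 4.46 CPM in Yap CKO retinas, 75.2, 9.002 and 37.0 CPM in control retinas and 132, 166 and 117 CPM in C57 retinas. Pde6h (ENSMUSG00000064330, chr6:136923832-136968865, plus strand), the inhibitory subunit, had 33.2, 10.8 and 1.42 CPM in Yap CKO retinas, 38.9, 2.64 and 17.9 CPM in control retinas and 265, 210.2 and 170.1 CPM in C57 retinas. The highest retinas of each P60 group came near the C57 range for Pde6c but not for Pde6h. The highest P60 retina exceeded the lowest by 20.8-fold for Pde6c and 27.4-fold for Pde6h, against at most 1.56-fold among the C57 retinas. Pde6h shares 136 exonic bases with Arhgdib on the opposite strand, a gene with 1479 counts over the 9 libraries.

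Pde6h fell in Yap CKO against C57 (log2 fold change -3.82 ± 1.05, edgeR adjusted p = 0.0331) and in control against C57 (-3.43 ± 0.77, adjusted p = 0.00857). Pde6c fell in control against C57 (-1.76 ± 0.61, edgeR adjusted p = 0.0479) and missed the threshold in Yap CKO against C57 (-1.69 ± 0.96, adjusted p = 0.211). In Yap CKO against control the values were 0.07 ± 1.3 for Pde6c and -0.39 ± 1.41 for Pde6h (edgeR adjusted p = 0.989 and 0.930). The Pde6c call was not firm: it was lost without control 3 (edgeR adjusted p = 0.127), C57 1 (0.140), C57 2 (0.141) or the unnumbered C57 library (0.121), and by DESeq2 (0.0532), with a filter of 1 CPM (0.0501), without a filter (0.232) and with all 9 libraries in 1 fit (0.218). The Pde6h call in Yap CKO against C57 was lost without Yap CKO 2 (edgeR adjusted p = 0.129), C57 1 (0.124), C57 2 (0.0644) or the unnumbered C57 library (0.129), and without a filter (0.111). In control against C57 the Pde6h call was lost without a filter (edgeR adjusted p = 0.0904) and with all 9 libraries in 1 fit (0.055). Leaving out control 1 moved Pde6c to -2.56 and Pde6h to -4.37 in control against C57, and leaving out Yap CKO 1 moved Pde6c to -2.95 (edgeR adjusted p = 0.0515) and Pde6h to -5.13 in Yap CKO against C57. Pde6c passed in Yap CKO against C57 by limma-voom (-2.55, adjusted p = 0.0485). The ratio of Pde6c to Pde6h counts was 2.78, 2.86 and 3.12 in Yap CKO retinas, 1.94, 3.40 and 2.07 in control retinas and 0.497, 0.788 and 0.688 in C57 retinas, with every P60 ratio above every C57 ratio.

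The subunits of the cyclic-nucleotide-gated channel, which work in a shared complex, did not vary together. Cnga3 (ENSMUSG00000026114, chr1:37214434-37263384, plus strand), the pore-forming A subunit, had 12.7, 4.11 and 0.523 CPM in Yap CKO retinas, 11.3, 0.647 and 5.33 CPM in control retinas and 26.5, 26.0 and 32.9 CPM in C57 retinas. Cngb3 (ENSMUSG00000056494, chr4:19280850-19510623, plus strand), the modulatory B subunit, had 9.58, 6.62 and 8.61 CPM in Yap CKO retinas, 10.2, 9.10 and 10.2 CPM in control retinas and 32.5, 50.4 and 50.8 CPM in C57 retinas. Cnga3 was down to 21 counts in Yap CKO 3 and 26 in control 2, while Cngb3 had 346 and 366 counts there. The count ratio of Cnga3 to Cngb3 was 1.32, 0.622 and 0.0621 in Yap CKO retinas, 1.11, 0.0723 and 0.526 in control retinas and 0.816, 0.516 and 0.648 in C57 retinas, so the P60 ratios lay on both sides of those in C57.

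Cngb3 fell in Yap CKO against C57 (log2 fold change -2.42 ± 0.22, edgeR adjusted p = 0.000147) and in control against C57 (-2.16 ± 0.19, adjusted p = 0.000129). Cnga3 fell in control against C57 (-2.29 ± 0.73, edgeR adjusted p = 0.0346) and missed the threshold in Yap CKO against C57 (-2.30 ± 0.96, adjusted p = 0.107). Between Yap CKO and control the log2 fold change was 0.0047 ± 1.40 for Cnga3 and -0.25 ± 0.15 for Cngb3 (edgeR adjusted p = 0.999 and 0.418), and the value of Cngb3 was the smallest adjusted p of the 10 genes in that comparison. The Cnga3 call in control against C57 was lost without control 3 (edgeR adjusted p = 0.102), C57 1 (0.103), C57 2 (0.0879) or the unnumbered C57 library (0.121), and its value moved to -3.22 without control 1. It was also lost without a filter (edgeR adjusted p = 0.193) and with all 9 libraries in 1 fit (0.144). Cnga3 passed in Yap CKO against C57 without Yap CKO 1 (-3.60, edgeR adjusted p = 0.0187) and without Yap CKO 3 (-1.75, adjusted p = 0.0204).

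Arr3 (ENSMUSG00000060890, chrX:100605497-100618493, plus strand), cone arrestin, which shuts off the activated opsin, had 42.3, 21.6 and 7.64 CPM in Yap CKO retinas, 33.2, 13.4 and 15.7 CPM in control retinas and 72.8, 102.8 and 67.0 CPM in C57 retinas. Its P60 means were 29.5% of the C57 mean in Yap CKO and 25.7% in control, well above the share the opsins kept. Arr3 fell in control against C57 (log2 fold change -1.94 ± 0.35, edgeR adjusted p = 0.00306) and missed the threshold in Yap CKO against C57 (-1.76 ± 0.59, adjusted p = 0.0589), although no retina overlapped. It passed there without Yap CKO 1 (-2.45, edgeR adjusted p = 0.00644), without Yap CKO 3 (-1.33, adjusted p = 0.0176) and by DESeq2 (adjusted p = 0.0250) and limma-voom (adjusted p = 0.0154). Yap CKO against control gave 0.20 ± 0.73 (edgeR adjusted p = 0.932).

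**Figure D2:**
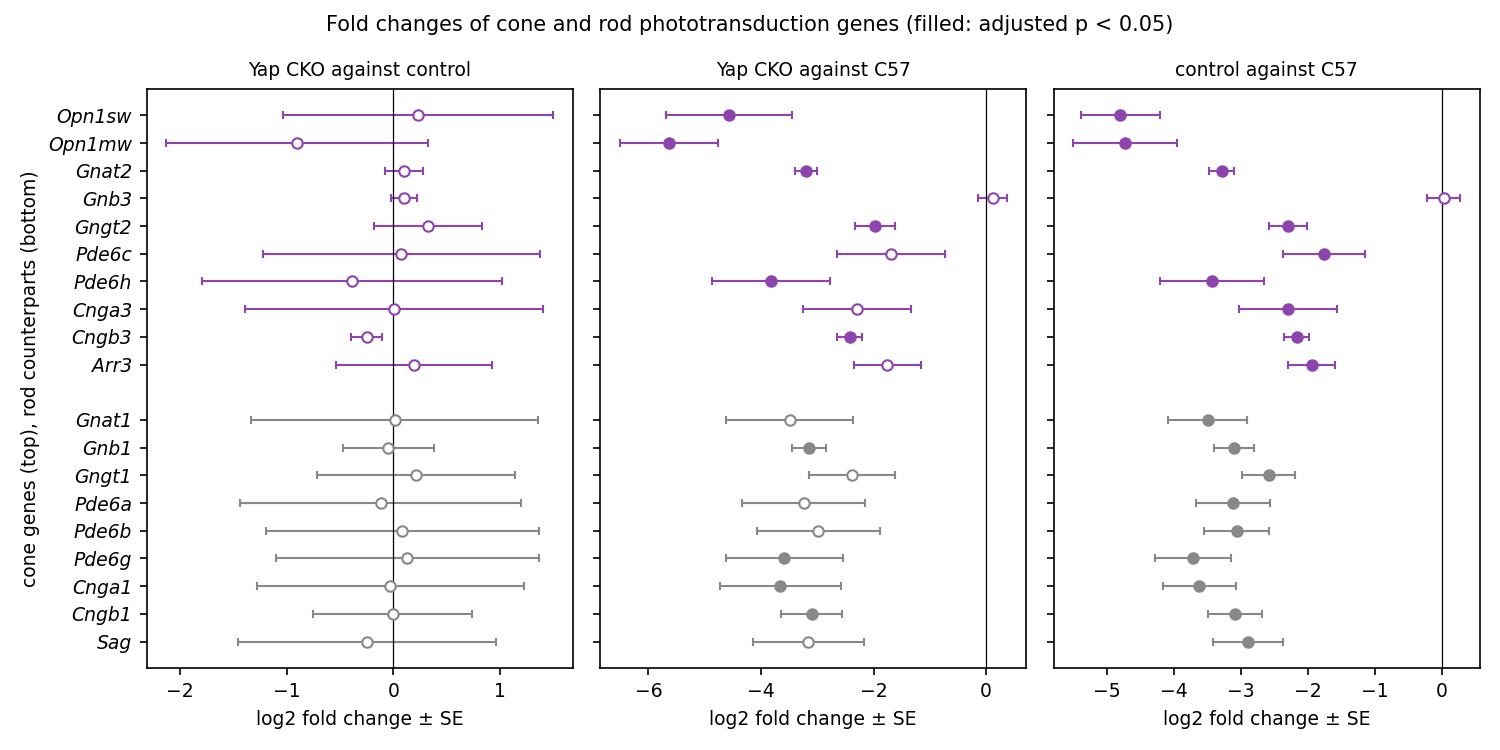
Log2 fold changes with their standard errors from edgeR for the 10 cone genes (top) and 9 rod counterparts (bottom) in Yap CKO against control, Yap CKO against C57 and control against C57, with n = 3 retinas per group and filled points for adjusted p under 0.05. In the left panel all points lie between -0.90 and 0.32 and none is filled, and in both C57 panels Gnb3, at 0.12 for Yap CKO and 0.03 for control, is the only cone gene near 0.

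Per length of transcript, the order of the genes in C57 differed from that at P60. As CPM per kilobase of the principal transcript, C57 retinas averaged 322 ± 44 for Opn1sw and 265 ± 32 for Opn1mw (SD, n = 3), whose retinas overlapped. Gnb3 (180.0 ± 62) and Gnat2 (157 ± 24) followed, also with overlap. The next levels in C57 were 75.3 for Gngt2, 59.5 for Arr3, 53.4 for Pde6c and 36.2 for Pde6h, and the channel subunits were lowest with 9.46 for Cngb3 and 8.01 for Cnga3. Neighbours in this order overlapped in C57 except Gnat2 above Gngt2, Pde6c above Pde6h and Pde6h above Cngb3. Gnb3 had the highest level per kilobase in each P60 group, with 194 ± 29 in Yap CKO and 181 ± 23 in control. The other 9 genes averaged 1.62 to 19.0 CPM per kilobase in Yap CKO and 1.62 to 15.9 in control. The annotated principal transcript of Pde6h has 5940 bases, the longest of the 10, and its value per kilobase rests on that annotation.

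Within the P60 retinas the order of the libraries was much the same for most cone genes, and each genotype held both high and low retinas. For 9 of the 10 genes Yap CKO 1 and control 1 were the highest of the 6 P60 retinas, and for 9 of the 10 Yap CKO 3 and control 2 were the lowest. Gnat1, the transducin alpha subunit of rods, which was not a criterion of choice, had 4657, 2375 and 145 CPM in Yap CKO retinas, 4365, 722 and 2024 CPM in control retinas and 28570, 27440 and 24820 CPM in C57 retinas, so the same pairs of retinas were at its extremes. Over the 6 P60 retinas, Pearson's r with Gnat1 on the log2(CPM + 1) scale ranged from 0.717 for Gnb3 to 0.966 for Pde6c among 9 genes and was 0.185 for Cngb3. These values describe 6 retinas from both groups, which share depth and scaling, and the point of Yap CKO 3, with its lens signal, is among the lowest. The size of the spread differed between genes: from the highest to the lowest P60 retina it was 17.6-fold for Opn1sw, 19.7-fold for Opn1mw, 24.2-fold for Cnga3 and 32.1-fold for Gnat1, but 1.42-fold for Gnb3, 1.54-fold for Gnat2 and 1.54-fold for Cngb3.

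**Figure D3:**
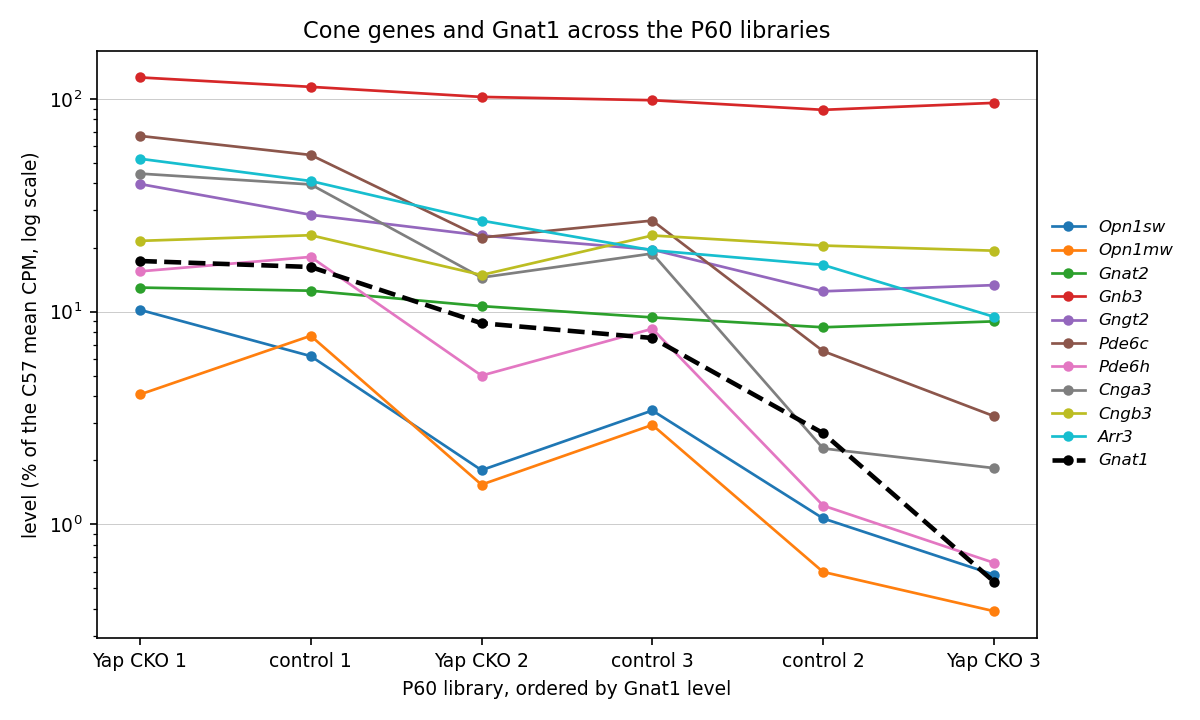
Level of each cone gene and of Gnat1 (dashed) in the 6 P60 retinas, as a percentage of the C57 mean CPM on a log scale, with retinas ordered from left to right by Gnat1. Most lines fall from left to right, those of Opn1sw, Opn1mw, Pde6c, Pde6h and Cnga3 the most steeply among the cone genes, while Gnat2, Gnb3 and Cngb3 stay nearly level.

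Ratios within a library, which do not depend on scaling, set 8 of the cone genes against a rod counterpart. In Yap CKO against control the groups overlapped for all 8 pairs, and the exact two-sided permutation p ran from 0.4 to 0.9. Several cone genes stood higher against their rod counterpart at P60 than in C57. Gnb3 to Gnb1 differed by 3.41 in Yap CKO against C57 and 3.25 in control against C57 on the log2 scale, Pde6c to Pde6b by 1.44 and 1.10, and Arr3 to Sag by 1.93 and 1.16, each without overlap (exact permutation p = 0.1, the smallest possible, adjusted p = 0.3 over the 27 ratio tests). Gnb1 is expressed widely and is not confined to rods. No share without overlap was computed for ratios of other genes, so these ratios are a description. Cnga3 to Cnga1 had no overlap in Yap CKO against C57 (1.34, exact permutation p = 0.1) and overlapped in control against C57 (0.87, exact permutation p = 0.4). Pde6h to Pde6g stood lower in Yap CKO against C57 without overlap (-0.30, exact permutation p = 0.1) and overlapped in control against C57 (-0.09, exact permutation p = 1.0). Gnat2 to Gnat1, Gngt2 to Gngt1 and Cngb3 to Cngb1 overlapped with C57 in both comparisons, and the Gnat2 to Gnat1 ratio reached 0.200 in Yap CKO 3 against 0.00897 to 0.0376 in the other 5 P60 retinas.

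**Figure D4:**
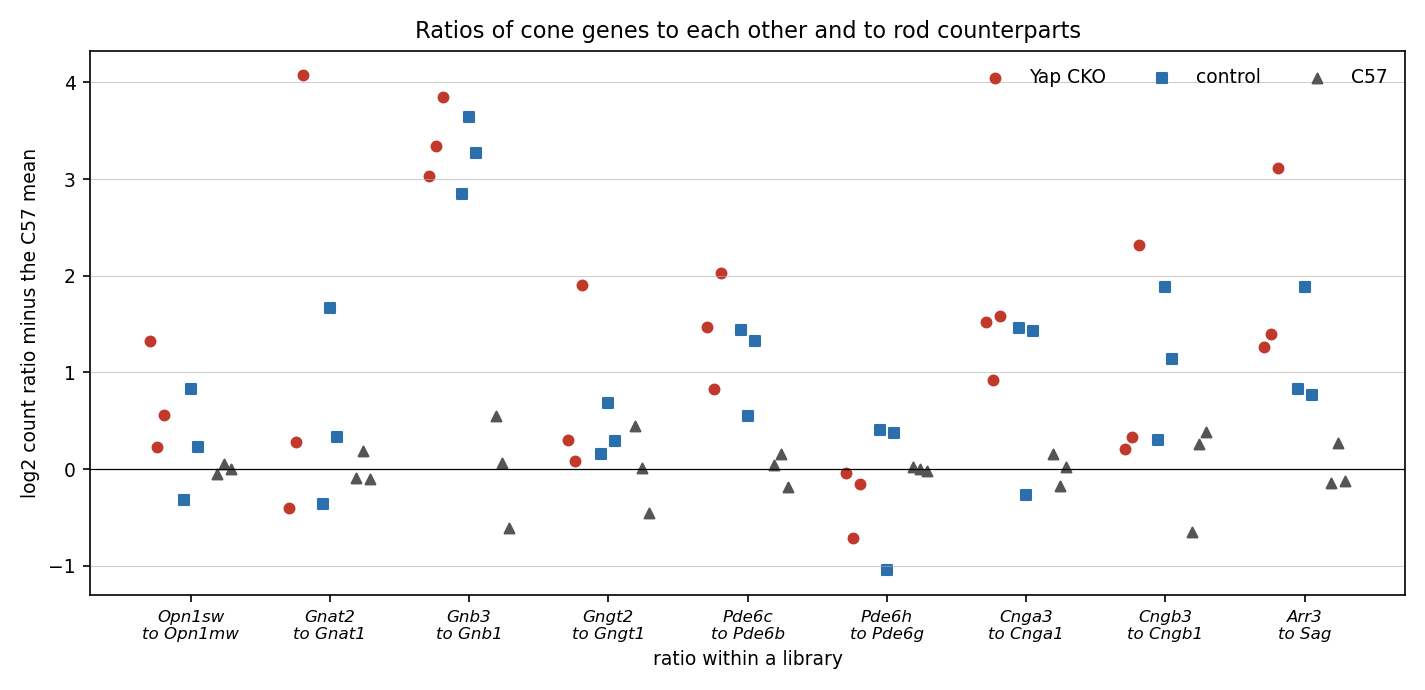
Log2 count ratio of each named pair of genes in each of the 9 libraries minus the mean of the 3 C57 libraries, with Yap CKO as circles, control as squares and C57 as triangles, and the C57 mean at 0. Gnb3 to Gnb1 lies far above 0 in all 6 P60 retinas, and Gnat2 to Gnat1 spreads from under 0 to above 4.

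Ratios between the cone genes themselves, a description added after the data had been seen, were taken as well. The count ratio of Opn1sw to Pde6c was 0.856, 0.454 and 1.01 in Yap CKO retinas, 0.638, 0.920 and 0.720 in control retinas and 5.97, 5.30 and 5.69 in C57 retinas. It lay between 0.454 and 1.01 in the 6 P60 retinas, although Opn1sw alone varied by 17.6-fold and Pde6c by 20.8-fold among them, and it was well under the C57 ratios. The ratio of Opn1sw to Arr3 was 1.87, 0.645 and 0.590 in Yap CKO retinas, 1.44, 0.618 and 1.70 in control retinas and 10.8, 8.53 and 9.94 in C57 retinas. Of the 45 ratios among the 10 genes, 30 had no overlap between Yap CKO and C57 and 30 had none between control and C57. Every ratio with Gnb3 was among them in both comparisons. The ratios share genes and are not independent, and no share over ratios of other genes was computed. The counts of 30 are therefore a description and not a result about these genes. Between Yap CKO and control 1 of the 45 had none, Pde6h to Cnga3, with an exact two-sided permutation p of 0.1, the smallest possible, and no difference is read from 1 such ratio.

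The rod counterparts and most listed partners of the cascade were also lower at P60 than in C57 and did not pass between Yap CKO and control. Of all genes tested, 22.4% fell in control against C57, 20.2% fell in Yap CKO against C57 and 0.2% passed in Yap CKO against control. Of 9 rod counterparts, 9 fell in control against C57 (median log2 fold change -3.09), 4 fell in Yap CKO against C57 (median -3.16) and 0 passed in Yap CKO against control (median -0.01). The 4 became 9 without Yap CKO 3, 7 without Yap CKO 1, 9 by DESeq2, and 2 without Yap CKO 2 or any C57 library. Of 16 genes listed as partners used by rods or cones, 15 fell in control against C57 (median -2.66) and 11 in Yap CKO against C57 (median -2.69). Of these partners, 0 passed in Yap CKO against control (median -0.01). The 11 became 5 without Yap CKO 2, 6 without C57 1, 7 without C57 2 and 4 without the unnumbered C57 library, and without Yap CKO 3 a partner passed in Yap CKO against control. In control against C57 the smallest p-values among them belonged to Pde6d, a carrier of prenylated photoreceptor proteins (-1.42, edgeR adjusted p = 0.000266), and Gnb5, a partner of the GTPase activator Rgs9 (-1.83, adjusted p = 0.000325). They were followed by the potassium channel subunit gene Kcnv2 (-3.66, edgeR adjusted p = 0.000376) and Rgs9bp, which anchors Rgs9 (-3.02, adjusted p = 0.000485). In Yap CKO against C57 the smallest belonged to Gnb5 (-1.74, edgeR adjusted p = 0.000894), Pde6d (-1.23, adjusted p = 0.00248), Rgs9 (-2.65, adjusted p = 0.00456) and Unc119, a carrier of acylated transducin (-2.10, adjusted p = 0.00619). The exception was Slc24a2, a sodium-calcium exchanger gene, with -0.25 in Yap CKO against C57 (edgeR adjusted p = 0.279) and -0.04 in control against C57 (adjusted p = 0.856). Which cells hold the Slc24a2 RNA was not tested. In Yap CKO against control the smallest adjusted p-values of the partners were 0.315 for Slc24a2 (-0.20), 0.733 for Pde6d (0.20), 0.871 for Gnb5 (0.10) and 0.883 for Unc119 (0.22), by edgeR.

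Cone genes outside the cascade were also lower at P60, some by less. Of 7 such genes, 6 could be tested and Clca3a2 had at most 3 counts in a library. Control against C57 had 5 of the 6 lower and Yap CKO against C57 had 4, with 0 passing in Yap CKO against control (1 without Yap CKO 3). The shares over all genes were 22.4%, 20.2% and 0.2% in these comparisons. The 5 became 2 without control 2, control 3 or C57 2, and the 4 became 2 without Yap CKO 2 or C57 1. Kcne2, a potassium channel subunit, had 12.6, 13.5 and 13.3 CPM in Yap CKO retinas, 13.6, 14.3 and 12.4 CPM in control retinas and 85.2, 88.0 and 85.6 CPM in C57 retinas. It fell in Yap CKO against C57 (log2 fold change -2.71 ± 0.12, edgeR adjusted p = 8.08e-06) and in control against C57 (-2.66 ± 0.11, adjusted p = 6.92e-06), and its P60 values lay within 1.15-fold of each other, so it did not follow the swings of the opsins. Thrb, the thyroid hormone receptor gene that mouse cones need for Opn1mw, fell too (-1.58 in Yap CKO against C57 and -1.64 in control against C57, edgeR adjusted p = 0.00347 and 0.000769). Rxrg, a retinoid receptor gene of cones, did not pass in either (-0.13, edgeR adjusted p = 0.666, and -0.40, adjusted p = 0.0751).

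Among 11335 other genes of at least 5 CPM on average at P60, those most like the mean log2 level of the 10 cone genes over the 6 P60 retinas were Tdrd7 (Pearson's r = 0.998), Asrgl1 (0.998), Rbm15 (0.997), Slc44a1 (0.997) and Elovl4 (0.997). For Opn1sw alone they were Hspa4l (0.993), Cdk19 (0.992), Esco1 (0.991), Mllt6 (0.990) and Abca7 (0.990), and for Opn1mw alone Pcmtd2 (0.994), Dscaml1 (0.994), Kif1b (0.993), Lmln (0.993) and Faim (0.992). With 6 retinas and this many genes, such values describe these libraries and no more. The authors' deposited table of comparisons lists 305 genes, and 0 of the 10 cone genes are among them. Its entries have absolute log2 fold changes of 0.587 or more and p-values, from the authors' own test, of 0.0489 or less. The list is short beside the 16539 genes tested here in Yap CKO against control. The absence of these 10 genes is therefore not read as a result about them.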

How the data were processed

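Each library used 1 µg of total retinal RNA and a strand-keeping TruSeq protocol, per the labels. HISAT2 2.1.0, GRCm38, featureCounts and edgeR are listed in the submitters' processing notes. For the annotation release and the strand setting the answer is not given in the sources used here. The deposited count table holds the authors' whole-number counts per gene, not normalized. The authors' deposited comparison table gives log2 fold changes and p-values, per the file headers, and served here only to look for the 10 genes. Positions are from GENCODE M21 (GRCm38) and promoter windows from RefSeq (GRCm38.p6).

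Each comparison was fitted on its own 6 libraries with edgeR 4.0.16 (R 4.3.3): filterByExpr (minimum count 10, minimum total 15), TMM scaling, robust quasi-likelihood F-tests, and Benjamini-Hochberg adjustment over all genes, with a threshold of 0.05. CPM were scaled by TMM over all 9 libraries. Ratios are log2 count ratios with 0.5 counts added, with two-sided exact permutation tests. The test was tried on simulated counts drawn gene by gene, without the swings that the P60 retinas shared. No conclusion is drawn from that trial. Alternatives used DESeq2 1.42.0, limma-voom (limma 3.58.1), other scalings and filters, 1 fit over 9 libraries, thinned P60 counts, the replicate number as a block, and each library left out. The members, lists and alternatives were chosen with earlier results of these data known. Named genes were the 10 members, their rod counterparts, the 4 partners with the smallest p per comparison among those reported and the 5 genes most like the members; some planned genes are not reported here, and the other cone genes named (Kcne2, Thrb, Rxrg, Clca3a2) were picked after their values were seen. No pair of replicates agreed within sampling noise (chi-square of 22.7 to 142 per degree of freedom). CPM values rest on 13760765 counts or more per library.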

Additional observations from a re-analysis of the deposited data

How the results depend on the processing

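The count of cone genes lower in control against C57 was 9 and ranged over 7 to 9 when each library was left out. It was 6 without a filter or with all 9 libraries in 1 fit, 8 by DESeq2 or with a filter of 1 CPM, and 4 with the replicate block, which left Opn1sw, Opn1mw, Pde6c, Pde6h and Cnga3 without a call. In Yap CKO against C57 it was 6, with 4 to 8 when each library was left out, 8 with the block and 9 by limma-voom. In Yap CKO against control it was 0 under every alternative, while the count over all genes was 33 and ranged over 0 to 1473, with 919 by DESeq2 and, without a filter, 83 higher and 260 lower. Gnat2, Gngt2 and Cngb3 were called against C57 in all 19 settings of both comparisons. Against C57 the replicate block joins libraries of different series by their number alone. The P60 retinas numbered 3 and the unnumbered C57 library have no partner in it. Those block fits therefore rest on the libraries numbered 1 and 2, and nothing is read from their calls. Same-numbered Yap CKO and control retinas had deviations correlated at 0.392, -0.0282 and 0.0455, and those with different numbers at -0.447 to 0.356. These values do not settle whether the numbers pair the samples. Blocking Yap CKO against control by the numbers left 0 of the 10 genes called and 45 of all genes in place of 33.

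Signs between Yap CKO and control were not stable, except that Cngb3 stayed at -0.37 to -0.12 over all 18 settings. The log2 fold change ran over -1.58 to 0.88 (Opn1sw), -1.95 to 0.16 (Opn1mw), -0.50 to 0.70 (Arr3), -0.0452 to 0.27 (Gnat2), -0.0212 to 0.19 (Gnb3), -0.16 to 0.65 (Gngt2), -1.19 to 0.87 (Pde6c), -1.70 to 0.54 (Pde6h) and -1.31 to 0.93 (Cnga3) when each library was left out. Limma-voom gave -0.36 for Opn1sw, -0.00011 for Arr3, -0.33 for Pde6c and -0.17 for Cnga3. The block gave -0.24 for Opn1sw, -0.17 for Pde6c and -0.0739 for Cnga3. Cnga3 was also -0.0038 with RLE scaling, -0.0126 without a filter and -0.0062 by DESeq2. Gnb3 against C57 was -0.21 for control and -0.0554 for Yap CKO with the block, and -0.22 to 0.26 and -0.14 to 0.35 when each library was left out.

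Log2 ratio differences between Yap CKO and control, each library left out, ran over -0.61 to 1.63 (Gnat2 to Gnat1), -0.0696 to 0.35 (Gnb3 to Gnb1), -0.18 to 0.73 (Gngt2 to Gngt1), -0.69 to 0.0352 (Pde6h to Pde6g), -0.10 to 0.76 (Cnga3 to Cnga1) and -0.84 to 0.23 (Cngb3 to Cngb1). For control against C57 they ran over -0.0450 to 0.53 (Opn1sw to Opn1mw), -0.0157 to 0.996 (Gnat2 to Gnat1) and -0.34 to 0.39 (Pde6h to Pde6g), and for Yap CKO against C57 over -0.0649 to 2.17 (Gnat2 to Gnat1). The cause of these shifts was not tested. The spread between retinas limits Yap CKO against control: the standard errors of the 10 genes ran from 0.12 for Gnb3 to 1.41 for Pde6h on the log2 scale, and a p that missed the threshold does not show that the groups were alike.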
